A study of Homo sapiens with 4 samples.

Results

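Among 5103 nuclei with 10000 or more counts, 1164 carried few counts on the short arm of chromosome 9 (9p) and many on the short arm of chromosome 3 (3p). These nuclei, called members here, were chosen by measured values: under 0.5% of a nucleus's counts at 10 to 30 Mb of chromosome 9 and over 1.1% at 0 to 30 Mb of chromosome 3. Nuclei low on both chromosome 7 and chromosome 15 (each at a log2 of -0.2 or lower against the pooled Carrier nuclei) were left out. Counts were taken in 50771 consensus regions, which are merged peaks found in all 4 libraries. They included 234 regions in the chromosome 9 interval and 463 in the chromosome 3 interval.

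The nuclei were those of Panc1, an established line of human pancreatic carcinoma cells, from transplanted mice; the labelled tissue is pancreas. The 2 Carrier libraries (mice 12 and 31) came from mice given the carrier alone. The 2 Inflachromene libraries (mice 11 and 35) came from mice given inflachromene, a compound that targets HMGB1 and HMGB2, abundant proteins that bend DNA. Each library is 1 mouse, and the labels used here give no dose, time, strain or age. The nuclei of a library share that mouse and are not replicates of a treatment.

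In single-nucleus ATAC-seq a transposase inserts into open DNA, so a region's count rises with its openness and with the number of DNA copies in the nucleus. These counts alone cannot tell openness and copy number apart. Carcinoma cell lines such as Panc1 are known to differ from normal cells, and often from each other, in the dosage of whole chromosome arms. The short arm of chromosome 9 holds the tumour suppressor CDKN2A beside MTAP, an enzyme of methionine salvage, and the short arm of chromosome 3 holds TGFBR2, which encodes a receptor of transforming growth factor beta. CDKN2A had no consensus region at a listed start.

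Library totals lay between 27088391 and 39947056 counts, and 673 to 1678 nuclei of each library reached 10000 counts. Summed over nuclei, the members of Carrier 12 gave 2576110 counts and those of Carrier 31 gave 4409934. The sums were 7578866 for Inflachromene 11 and 9369133 for Inflachromene 35. Members and reference nuclei, which meet neither criterion and number 2979, had similar depth within a library: the medians were 15658 and 15177 counts in Carrier 12, 37610 and 36199 in Carrier 31, 19138 and 18360 in Inflachromene 11, and 18203 and 17354 in Inflachromene 35. Carcinoma marker genes with a site (CDH1, EPCAM, KRT18 and KRT19, 4 of 6) summed to 52.4 to 57.4 CPM (counts scaled to a common total per library and class) in members and 50.3 to 60.6 CPM in reference nuclei. Lists of other cells gave ranges that overlap those of reference nuclei or, for B cells, lie below them: myeloid (CD68 and LYZ, 2 of 5) 38.9 to 48.5 CPM against 41.4 to 51.4 CPM, B cell (PAX5, 1 of 4) 5.6 to 9.4 against 10 to 13.7 CPM, T and NK cell (CD3E, 1 of 5) 7.7 to 10.5 against 6.7 to 9.9 CPM, and endothelial (CLDN5, 1 of 5) 2 to 7.4 against 5.2 to 7.3 CPM. None of the 4 acinar, 4 endocrine or 4 Schwann cell markers had a site. PECAM1, CDH5, VWF and KDR of the endothelial list and PTPRC, CSF1R and ITGAM of the myeloid list had none either. Of the fibroblast list, COL1A1, COL1A2, PDGFRA and PDGFRB had sites, with a sum of 107.9 to 150.3 CPM in members and 139.7 to 159.1 CPM in reference nuclei, and DCN and LUM had none. The part of these markers in the results was not tested.

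The libraries share barcodes. Carrier 12 and Inflachromene 11 had 1209 barcodes in common, Carrier 12 and Carrier 31 had 357, Carrier 31 and Inflachromene 11 had 155, and the other pairs had 25 to 29. Of 165 members in Carrier 12, 103 had a barcode that also occurred in Inflachromene 11, with a median there of 160 counts against 17356 in their own library. Of 116 members in Carrier 31, 63 had a barcode that occurred in Carrier 12 and 24 one that occurred in Inflachromene 11. The reference nuclei of Carrier 12 shared theirs at a like rate, 894 of 1395 with Inflachromene 11. Results are therefore also given without all barcodes found in more than 1 library, a choice made after the data were seen.

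The members made up 9.83% of the nuclei in Carrier 12 (165 of 1678, 8.45% to 11.4% by the exact Clopper-Pearson method at 95%) and 17.2% in Carrier 31 (116 of 673, 14.5% to 20.3%). They made up 34.7% in Inflachromene 11 (380 of 1094, 31.9% to 37.6%) and 30.3% in Inflachromene 35 (503 of 1658, 28.1% to 32.6%). Both Inflachromene libraries lay above both Carrier libraries, with means of 32.5% ± 3.11 and 13.5% ± 5.23 (SD, n = 2 each). The difference of 19 percentage points had an exact two-sided permutation p of 0.33, the smallest that 2 against 2 libraries allow. Without shared barcodes it was 19.1 points. A further 461 nuclei met both criteria but were left out as low on chromosomes 7 and 15; 406 of them lay in Inflachromene 35. With them, the shares were 10.3%, 18.9%, 38.0% and 54.8% in the order given above.

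The values that chose the members are a description only. The median share of counts in the chromosome 9 interval was 0.331% in members and 0.722% in reference nuclei, and in the chromosome 3 interval 1.43% and 0.824%. Few nuclei lay near the lines. Among nuclei that met the 3p criterion, 76 lay within 0.05 percentage points inside the 9p line (median 0.469%) and 44 lay as close outside it (median 0.519%). Among those that met the 9p criterion, 42 lay just inside the 3p line (median 1.12%) and 18 just outside it (median 1.08%). Another 274 nuclei met the 9p criterion alone and 168 the 3p criterion alone, 60 of the latter in Carrier 31, which had 116 members.

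**Figure D1:**
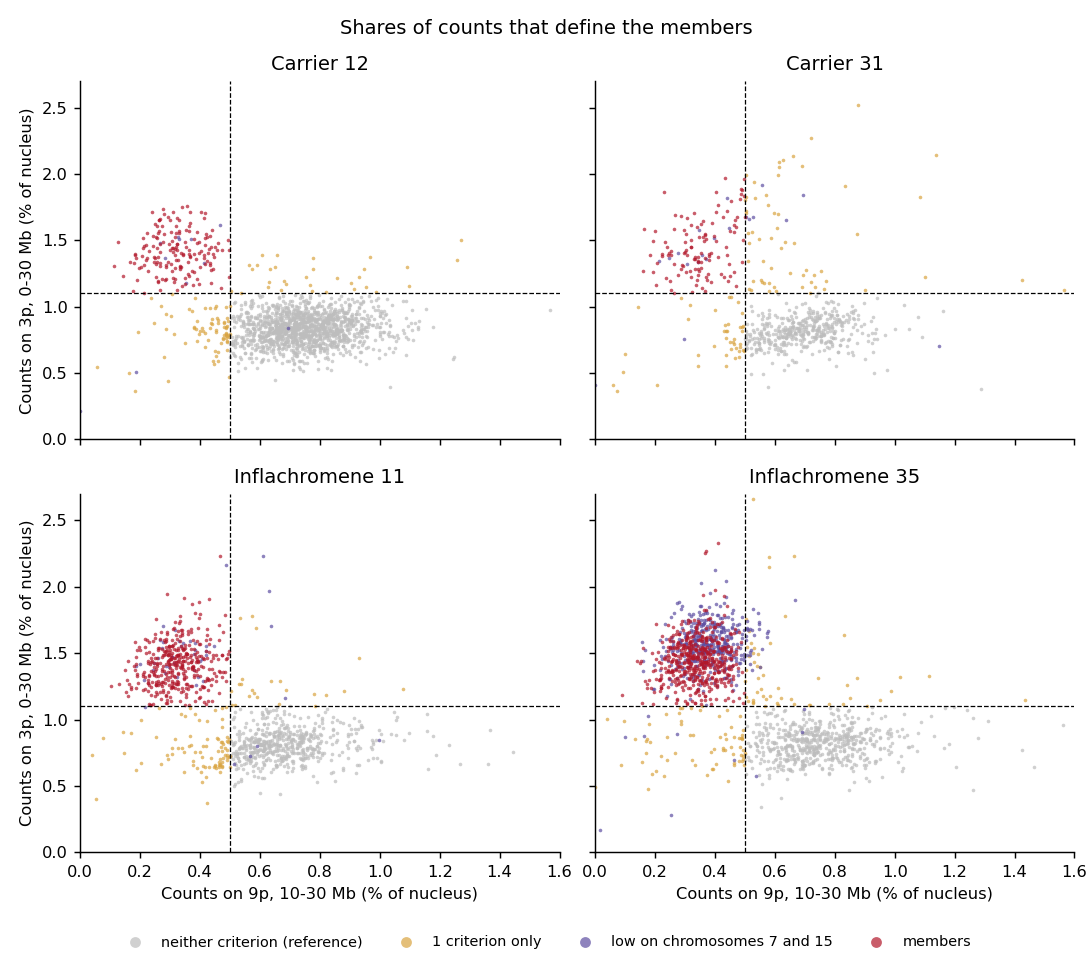
Each point is a nucleus of 10000 or more counts, with the percent of its counts at 10 to 30 Mb of chromosome 9 on the x axis and at 0 to 30 Mb of chromosome 3 on the y axis, 1 panel per library; dashed lines are the thresholds of 0.5% and 1.1%. Members lie at the upper left in all 4 libraries, as the rule sets, with some nuclei close to the lines on either side. In Inflachromene 35 the nuclei low on chromosomes 7 and 15 overlap the members. A few nuclei lie beyond the axis limits.

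Windows of 2 Mb show how far the changes on these arms reach (mean log2 of the share in members over reference nuclei, no test). Windows with under 5 regions were left out. On chromosome 9 the window from 0 to 2 Mb stood at 0.28 (-0.08 to 0.55 over libraries), that from 2 to 4 Mb at 0.08, and those from 4 to 14 Mb between -0.05 and 0.10. The windows from 14 to 28 Mb lay between -1.40 and -0.91, and those from 32 to 38 Mb between -0.52 and -0.35. The mean values were thus below -0.3 in an inner stretch of the arm and not in its outer windows. On chromosome 3 the window from 4 to 6 Mb stood at 1.34, those from 8 to 16 Mb between 0.68 and 0.80, and those from 16 to 22 Mb between 1.21 and 1.37. From 24 to 28 Mb the values were -0.03 and 0.02, from 30 to 34 Mb 0.74 and 0.81, and from 36 to 52 Mb between -0.03 and 0.15. The higher values from 4 to 34 Mb of chromosome 3 thus lay in separate blocks, with values near 0 at 24 to 28 Mb between them. Farther along, values departed from 0 in both directions. Among them, the windows at 52 to 54, 58 to 60 and 66 to 68 Mb stood at -0.24, 0.565 and 0.63. Single libraries departed from the others in places: at 24 to 26 Mb Carrier 12 stood at -0.41 and the others between 0.04 and 0.15, and at 54 to 56 Mb Carrier 31 stood at -1.18 and the others between -0.46 and -0.12.

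**Figure D2:**
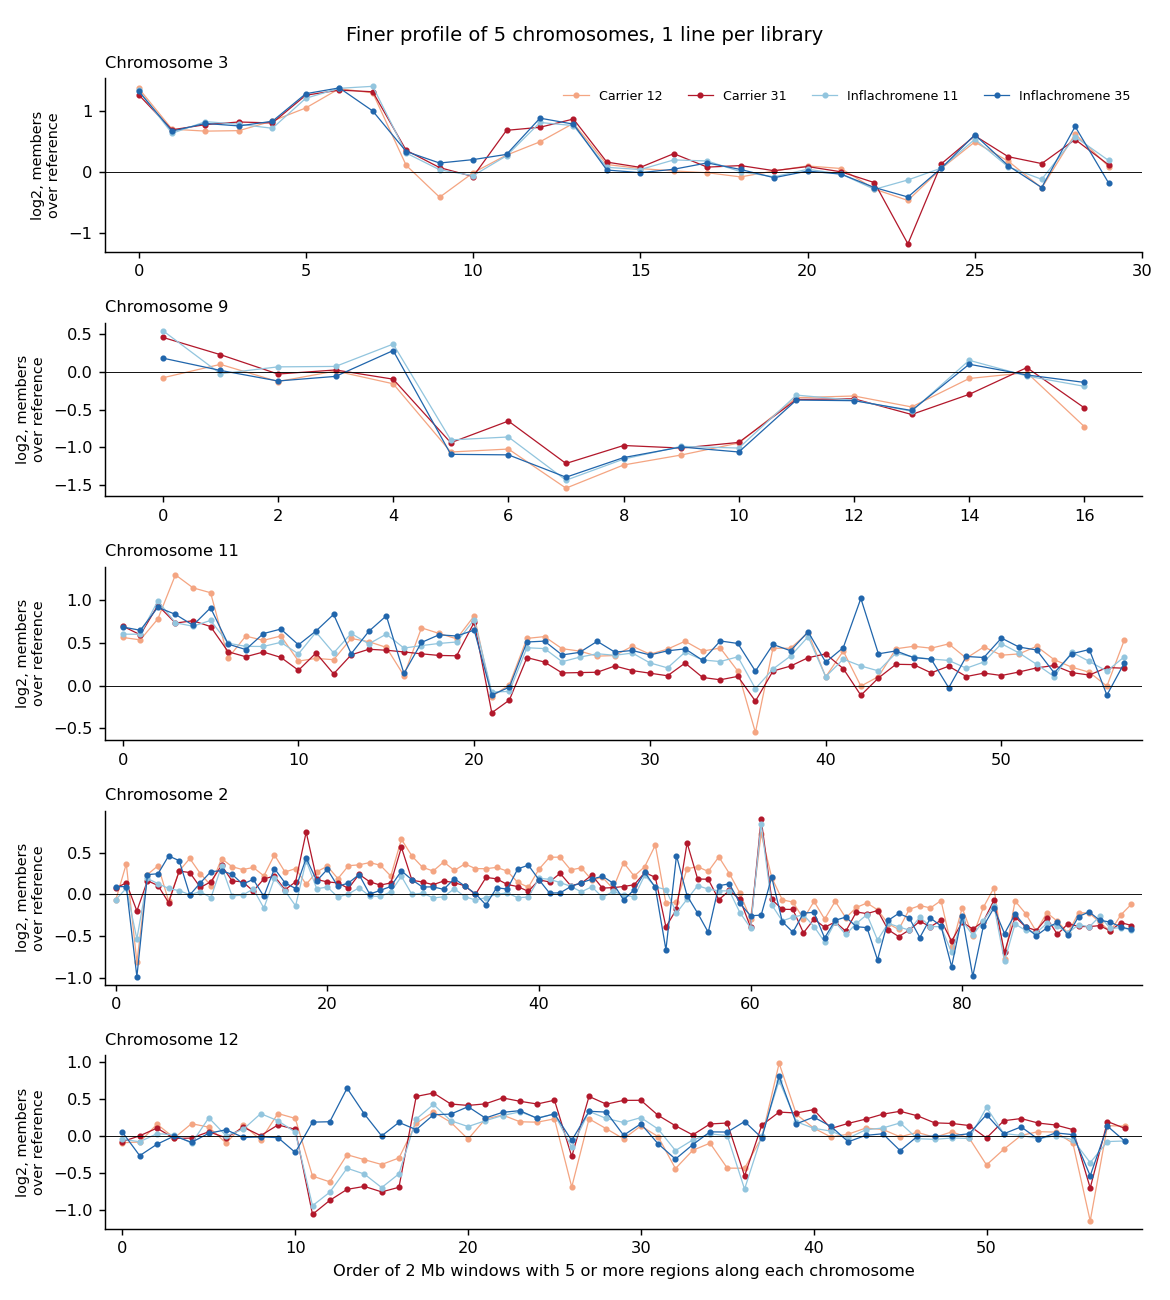
Lines give the log2 share of counts in members over reference nuclei for each library (y axis) in successive 2 Mb windows with 5 or more regions (x axis, window order) on chromosomes 3, 9, 11, 2 and 12. The 4 lines lie close in most windows of chromosomes 3 and 9, apart from Carrier 12 at 24 to 26 Mb and Carrier 31 at 54 to 56 Mb of chromosome 3 and the first window of chromosome 9, while on chromosome 12 the line of Inflachromene 35 departs from the other 3 in the windows from 24 to 36 Mb.

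Genes inside the rule's intervals followed their arms, again as a description. MTAP, the methionine salvage enzyme, gave 108, 138, 107 and 101 CPM in members of Carrier 12, Carrier 31, Inflachromene 11 and Inflachromene 35, the order used for every gene below, and 248, 244, 259 and 246 CPM in reference nuclei. HAUS6, a subunit of the augmin complex that seeds spindle microtubules, gave 70.7, 98.9, 78.9 and 78.1 CPM against 226, 246, 247 and 242 CPM. MLLT3, a subunit of the super elongation complex, gave 34.9, 47.9, 42.5 and 37.0 CPM against 136, 135, 134 and 137 CPM. No member value of these genes reached a reference value. The other genes named on 9p (RRAGA and SAXO1 with a shared region, DENND4C, CCDC171, SNAPC3) had log2 fold changes of -1.49 to -1.21.

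On 3p, BHLHE40, a transcriptional repressor of the circadian and hypoxia responses, gave 238, 234, 248 and 250 CPM in members and 90.1, 95.3, 91.4 and 108 CPM in reference nuclei. ANKRD28, a regulatory subunit of a protein phosphatase, gave 224, 186, 204 and 186 CPM against 91.6, 93.0, 90.7 and 87.2 CPM. Of the other genes named there, VGLL4, a cofactor that competes with YAP for TEAD factors, had the smallest log2 fold change, 0.66. BTD and HACL1, which share a region, stood at 0.73, TBC1D5, which regulates retromer, at 1.24, and DPH3 and OXNAD1, which share a region, at 1.29.

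Windows of 10 Mb outside the rule were tested with edgeR's quasi-likelihood test on counts summed per library and class, with the library as a block and Benjamini-Hochberg adjustment at 0.05. Of 267 windows, 30 were higher in members (11.2%) and 32 lower (12%). Chromosome 11 was higher in 13 of its 14 windows, with log2 fold changes of 0.72 (standard error 0.03) at 0 to 10 Mb and 0.26 to 0.60 elsewhere. The distal long arm of chromosome 2 was lower in all 9 windows from 160 Mb on, by 0.21 to 0.40 on the log2 scale, while 6 windows of the rest of the chromosome were higher (0.14 to 0.22). Chromosome 17 was lower in 6 of 9 windows (-0.34 to -0.19), chromosome 18 in 3 of 8 (-0.53 to -0.24), and chromosome 1 in 8 of 24, all on the long arm (-0.22 to -0.17). The last 3 windows of chromosome 5 were lower (-0.43 to -0.22), and 4 windows of chromosome 12 from 40 Mb on were higher (0.16 to 0.32). Beside the rule's own intervals, 30 to 40 Mb was higher on chromosome 3 (0.48, standard error 0.03, edgeR adjusted p = 8.74e-05) and lower on chromosome 9 (-0.39, standard error 0.02, edgeR adjusted p = 8.74e-05). Both windows adjoin the intervals that chose the members, so these p-values are not independent of the rule. Without shared barcodes 61 windows were called, of which 58 were among the 62.

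**Figure D3:**
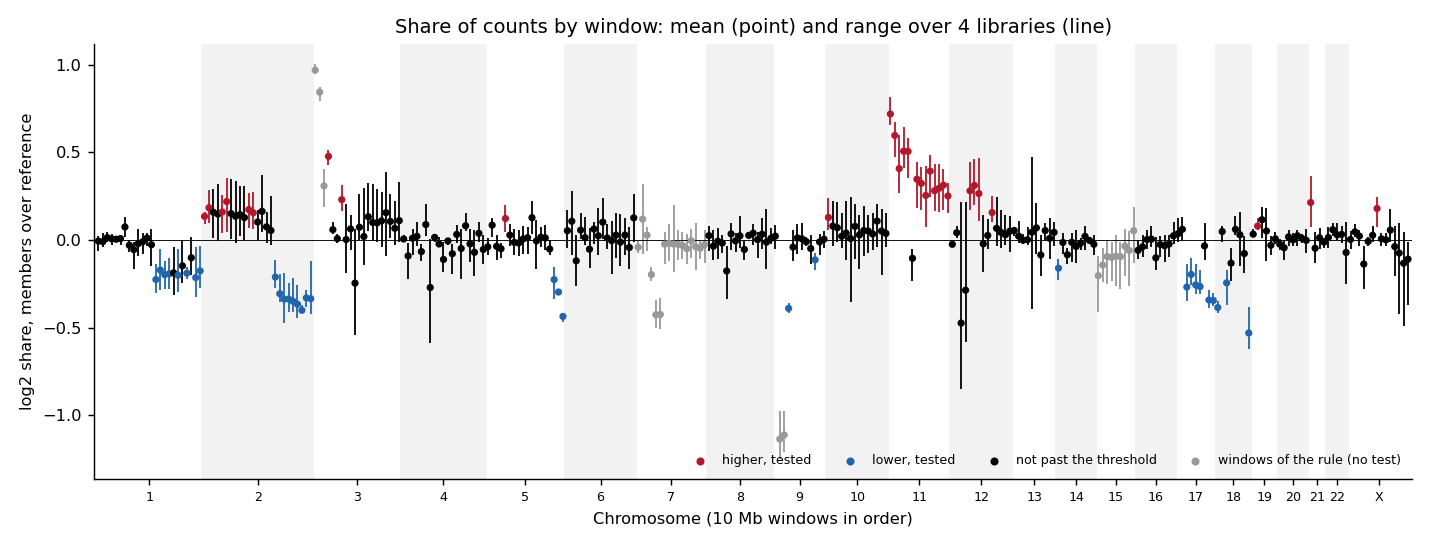
Points are the mean and lines the range over 4 libraries of the log2 share of counts, members over reference nuclei (y axis), in 10 Mb windows ordered along the chromosomes (x axis); grey windows belong to the rule and were not tested. Chromosome 11 stands above 0 in 13 called windows, and the end of chromosome 2 and most of chromosome 17 below it.

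Chromosome blocks chosen from these windows were then read per nucleus, as a description, and none was carried by all members. Each cut was the midpoint of the member and reference medians, which puts most members on their side by construction. For comparison, chromosome 9 from 0 to 10 Mb had medians of 0.065% and 0.064%. There 50.9% of members and 49.1% of reference nuclei lay above the midpoint. Chromosome 11 held a median of 6.98% of a member's counts (5th to 95th percentile 5.27% to 7.71%) and 5.01% of a reference nucleus's (4.39% to 5.74%). The midpoint of both medians was 5.99%, and 84.7% of members and 3.29% of reference nuclei lay above it. Chromosome 17 beyond 20 Mb held a median of 4.15% in members and 5.12% in reference nuclei, and 86.0% against 9.63% lay below the midpoint. Chromosome 2 from 160 Mb held 2.52% against 3.02%, with 83.0% of members and 32.5% of reference nuclei below the midpoint. All 3 patterns together occurred in 754 of 1164 members (64.8%) and 7 of 2979 reference nuclei (0.235%). Of nuclei that met the 9p criterion alone, 18.2% lay above the chromosome 11 midpoint (14.3% to 20.3% over libraries). Of those that met the 3p criterion alone, 10 of 32 in Carrier 12, 6 of 60 in Carrier 31, 13 of 23 in Inflachromene 11 and 22 of 53 in Inflachromene 35 did. Nuclei that met both criteria but were low on chromosomes 7 and 15 gave 31 of 36 above that midpoint in Inflachromene 11 but 3 of 406 in Inflachromene 35.

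The members of single libraries differed from each other in these blocks. In Carrier 31, 47.4% of members lay above the chromosome 11 midpoint, against 94.5% in Carrier 12, 82.1% in Inflachromene 11 and 92% in Inflachromene 35. In the same library 41 of 116 members had neither high counts on chromosome 11 nor low counts on chromosome 17, against 3 of 165, 9 of 380 and 21 of 503 in the others. On chromosome 12 from 24 to 36 Mb a member's median share was 0.566% in Carrier 12, 0.536% in Carrier 31 and 0.488% in Inflachromene 11, but 1.19% in Inflachromene 35. The reference medians were 0.961%, 0.943%, 0.861% and 0.917%. The members of Inflachromene 35 alone lay above their reference nuclei here, and the 10 Mb windows at 20 and 30 Mb did not pass the test of members against reference (edgeR adjusted p = 0.108 and 0.185).

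Gene sites are consensus regions at the listed starts of a protein-coding gene or, for genes without a listed start, at an outer end of the gene. Of 11241 sites outside the rule's windows, 1107 were higher in members (9.85%) and 960 lower (8.54%), and without shared barcodes 1498 sites were called, 1447 of them among the 2067. Since whole chromosome blocks moved, each site was then read relative to the rest of its 10 Mb window. On that scale 519 of 11207 sites were higher (4.63%) and 255 lower (2.28%), around a median log2 of 0.001. Without shared barcodes 426 were called, 404 of them among the 774. The plain count was 1337 without Inflachromene 11, and the relative count 511 without Carrier 31. Gene values of members against reference nuclei below are on this scale unless a CPM is given. Where a block ends inside a 10 Mb window, a value relative to the window can include part of the block's change, and this part was not tested. The contrast of treatments within members and the interaction are not read relative to the window. CPM are not comparable between genes, whose regions differ in length.

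MGMT, ALCAM and TPRG1 were picked from earlier results on these libraries, so their values are a description with no test. MGMT removes alkyl groups from guanine in DNA and thereby repairs the damage of alkylating drugs; its CpG-rich promoter is known to be methylated and silent in many tumours. ALCAM (CD166) is an immunoglobulin-family adhesion molecule, and TPRG1 lies next to the transcription factor gene TP63. The promoters of MGMT and ALCAM and that of FN1, which encodes the matrix protein fibronectin and is described below, are shown because the results on adhesion, matrix and repair turn on them and they differ in CpG content. Each runs from 250 bases before to 50 after the start, from RefSeq on GRCh38.p14, 5′ to 3′ on the gene's strand, with every CG in capitals.
MGMT, chr10:129466991-129467290, plus strand: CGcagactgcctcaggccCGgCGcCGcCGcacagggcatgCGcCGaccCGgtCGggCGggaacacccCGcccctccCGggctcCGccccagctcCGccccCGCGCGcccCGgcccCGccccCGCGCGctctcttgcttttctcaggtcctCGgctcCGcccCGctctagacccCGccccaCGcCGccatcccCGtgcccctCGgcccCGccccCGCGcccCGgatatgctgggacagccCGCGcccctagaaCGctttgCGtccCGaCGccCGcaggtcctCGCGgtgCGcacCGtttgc
ALCAM, chr3:105366659-105366958, plus strand: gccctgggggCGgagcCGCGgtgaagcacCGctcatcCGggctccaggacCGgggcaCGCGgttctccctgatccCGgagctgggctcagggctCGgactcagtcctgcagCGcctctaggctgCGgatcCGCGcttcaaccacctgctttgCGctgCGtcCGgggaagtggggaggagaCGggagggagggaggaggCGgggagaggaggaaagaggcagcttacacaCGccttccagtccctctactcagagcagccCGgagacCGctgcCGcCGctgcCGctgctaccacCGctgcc
FN1, chr2:215436019-215436318, minus strand: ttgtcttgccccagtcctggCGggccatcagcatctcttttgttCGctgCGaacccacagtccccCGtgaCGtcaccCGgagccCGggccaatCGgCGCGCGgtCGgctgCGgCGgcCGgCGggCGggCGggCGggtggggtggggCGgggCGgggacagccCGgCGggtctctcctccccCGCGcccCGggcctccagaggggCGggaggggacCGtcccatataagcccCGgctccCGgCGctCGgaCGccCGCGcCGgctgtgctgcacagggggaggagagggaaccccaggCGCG
MGMT has 45 CG, more than or as many as 94.7% of the 11357 listed starts with a tested site, FN1 has 38 and ALCAM 26, where the median is 27. All 3 hold the GC box GGGCGG on either strand, as do 73.7% of these starts.

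MGMT gave 17.1, 32.2, 26.4 and 14.9 CPM in members and 2.5, 4.37, 3.06 and 2.4 CPM in reference nuclei. Every member value was more than 3 times every reference value. A count at the site was found in 12.7%, 42.2%, 23.2% and 13.7% of members and in 2.22%, 6.90%, 3.05% and 2.37% of reference nuclei. Thinned to 10000 counts per nucleus, the shares were 10.7%, 22.6%, 17.3% and 10.6% in members and 1.79%, 3.49%, 2.22% and 1.76% in reference nuclei. The site was thus detected in a minority of members at this depth, and the reference level is the background beside which that share is read. The site lies at chr10:129466624-129467613 (GRCh38) and spans the promoter printed above.

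ALCAM gave 22.9, 43.3, 61.1 and 75.1 CPM in members and 11.5, 13.4, 14.4 and 18.4 CPM in reference nuclei. The lowest member library, Carrier 12, still lay above the highest reference library, and both Inflachromene libraries lay above both Carrier libraries. TPRG1 gave 5.82, 7.94, 22.7 and 23.7 CPM in members and 3.29, 2.68, 5.44 and 11.4 CPM in reference nuclei. Here the groups overlap, since the reference nuclei of Inflachromene 35 exceed the members of both Carrier libraries. TPRG1 has no listed start, and its site at chr3:189324459-189325441 is at an outer end of the gene.

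Among sites named by rule as the 15 highest, MOCS1, an enzyme of molybdenum cofactor synthesis, gave 32.2, 43.5, 36 and 33.6 CPM in members and 5.01, 7.61, 9.74 and 6.06 CPM in reference nuclei. Its log2 fold change relative to the window was 2.32 (standard error 0.15, edgeR adjusted p = 4.23e-12), and no library overlapped. FKBP5, a co-chaperone that restrains the glucocorticoid receptor and is itself induced by it, gave 39.6, 39.0, 45.6 and 37.0 CPM against 15.1, 14.4, 16.3 and 12 CPM. STARD4, a sterol carrier, gave 55.1, 42.6, 46.2 and 41.6 CPM against 11.8, 13.5, 9.74 and 27.4 CPM. Both rose (1.43 and 1.53, edgeR adjusted p = 3.33e-10 and 4.82e-08). PTPRM, a receptor phosphatase of cell contacts, rose by 1.55, and the RNA editing family gene ADARB2 by 1.44. The neutral endopeptidase gene MME rose by 1.43 (edgeR adjusted p = 0.00112), and missed the threshold without Carrier 31 (1.07, edgeR adjusted p = 0.0631). ZNF880, described next, missed it against all nuclei that are not members (0.86, edgeR adjusted p = 0.0503). TUBAL3, FBXO47, C21orf91, ZNF880 and SCML1 rose by 1.64 to 2.08.

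GCA and IFIH1, which share a region on chromosome 2, rose by 1.89 and 1.55 relative to their window. IFIH1 encodes MDA5, a sensor of double-stranded RNA. GCA gave 54.0, 75.1, 76.8 and 22.7 CPM in members and 9.45, 17.6, 19.9 and 23.4 CPM in reference nuclei. In Inflachromene 35 members were thus level with reference nuclei. The 2 Mb window from 162 to 164 Mb that holds both genes ranged from -0.25 to 0.90 over libraries.

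Of the 15 sites named as lowest, 6 lay on chromosome 5. This chromosome held 574 of the 11207 tested sites, of which 19 were lower (3.31%), against 2.28% over all sites. SEMA5A, a semaphorin, gave 4.27, 4.76, 2.11 and 2.24 CPM in members and 11.9, 16.2, 11.2 and 15.3 CPM in reference nuclei (-2.13, edgeR adjusted p = 3.47e-07). VCAN, the matrix proteoglycan versican, gave 8.15, 11.6, 8.44 and 7.58 CPM against 18.6, 23.4, 19.4 and 33.8 CPM (-1.43, edgeR adjusted p = 7.17e-07). Every member library lay below every reference library for both genes. EMB, which encodes the adhesion protein embigin, and the protocadherin PCDHGB1 fell by 2.06 and 1.59, and LOC107986346 fell by 1.52. Elsewhere the desmosomal cadherin DSC3 and the potassium channel KCNJ2 fell by 1.61 and 1.15, and PRSS12, ZNF626, ZSCAN23 and GLIPR1L1 by 1.2 to 1.27. CRACR2A and ATP13A5 fell by 1.39 and 1.23 and were no longer called without shared barcodes (edgeR adjusted p = 0.342 and 0.259) or without Carrier 31 (0.148 and 0.128). With a minimum of 20000 counts per nucleus they and PCDHGB1 and KCNJ2 missed the threshold.

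FN1 gave 9.32, 22.9, 15.6 and 27.8 CPM in members and 49.2, 60.3, 62.6 and 57.6 CPM in reference nuclei. Members were lower in all 4 libraries, without overlap, and FN1 fell by 1.2 relative to its window (standard error 0.13, edgeR adjusted p = 1.08e-07). The counts for gene lists here and below leave out genes in the rule's windows, chromosomes 7 and 15 included, and stand beside 4.63% of all sites higher and 2.28% lower. Of 16 genes of the mesenchymal and extracellular matrix list, 5 were lower and 0 higher, with a median of -0.10 against 0.001 over all sites. Besides FN1 these were TNC (tenascin C, -1.02), SPARC (osteonectin, -0.81), CDH2 (N-cadherin, -0.55) and SNAI2 (the transcription factor Slug, -0.44). Of the 16 genes 6 lay above 0. The list median of -0.10 stands beside -0.07 for 10 housekeeping genes, of which 1 lay above 0 and 0 were called. CDH2 missed the threshold without Inflachromene 35 (-0.28, edgeR adjusted p = 0.381) and SPARC without Inflachromene 11 (-0.58, edgeR adjusted p = 0.0529). With a minimum of 20000 counts per nucleus SNAI2 stood at -0.17 (edgeR adjusted p = 0.682), and CDH2 and SPARC missed the threshold as well. TNC gave 14.4, 13.8, 12.9 and 7.58 CPM in members against 31.3, 28.5, 20.5 and 24.2 CPM. Of 13 adhesion genes ALCAM, picked on these data, was higher, and CDH2 and NECTIN3 (-0.76) were lower. Of 7 epithelial genes 0 passed the test in either direction.

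**Figure D4:**
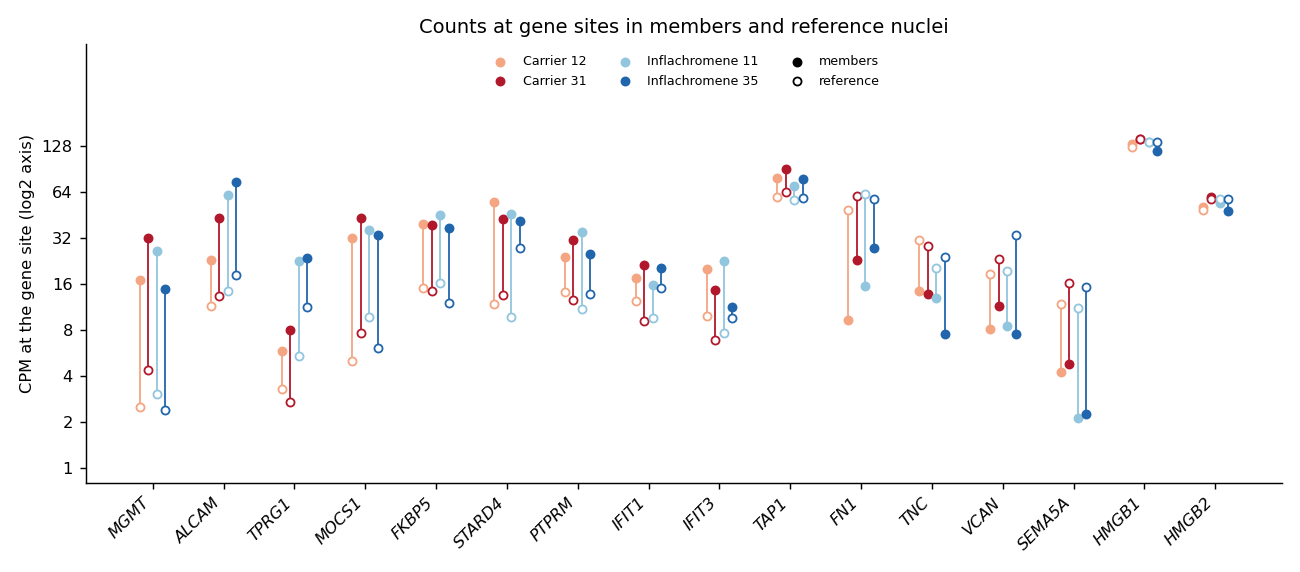
Filled points are members and open points reference nuclei of each library, joined by a line, with the CPM at each gene site on a log2 y axis and genes on the x axis. MGMT to TAP1 stand higher in members in every library and FN1 to SEMA5A lower, while HMGB1 and HMGB2 change place between libraries.

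Of 15 genes of the interferon and antigen presentation list, 4 were higher and 0 lower, beside 4.63% and 2.28% of all sites, with a median of 0.21. They were IFIT3 and IFIT1, which bind viral RNA, and TAP1 and PSMB9, a peptide transporter and an immunoproteasome subunit that share 1 region and count as 1 measurement. IFIT3 gave 20.2, 14.7, 22.8 and 11.3 CPM in members and 9.83, 6.92, 7.64 and 9.62 CPM in reference nuclei (0.94, standard error 0.20, edgeR adjusted p = 0.00144). IFIT1 gave 17.5, 21.3, 15.7 and 20.5 CPM against 12.4, 9.23, 9.65 and 15 CPM (0.66, edgeR adjusted p = 0.00736). TAP1 gave 79.6, 90.5, 70.7 and 78.2 CPM against 59.7, 64.1, 57.1 and 59.0 CPM (0.35, edgeR adjusted p = 0.00148). Members were higher in each library for all 3 regions. Without shared barcodes IFIT1 and TAP1 missed the threshold (0.58 and 0.31, edgeR adjusted p = 0.113 and 0.0504). IFIT1 missed it without Carrier 31 (0.54, edgeR adjusted p = 0.0931), and IFIT3 against all nuclei that are not members (0.67, edgeR adjusted p = 0.0847). With a minimum of 20000 counts per nucleus IFIT1 stood at 0.54 and TAP1 at 0.21 (edgeR adjusted p = 0.405 and 0.428). The regulators IRF9 and IRF1 did not pass the test, at 0.14 and -0.01 (edgeR adjusted p = 0.524 and 0.988), and the effector ISG15 at 0.19 (0.392).

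The promoters of IFIT3, IFIT1 and TAP1 are shown because each holds the core of the interferon-stimulated response element, searched as GAAA, any 2 bases and GAAA on both strands and printed in capitals, where matches can overlap (same source, build and length as above).
IFIT3, chr10:89327747-89328046, plus strand: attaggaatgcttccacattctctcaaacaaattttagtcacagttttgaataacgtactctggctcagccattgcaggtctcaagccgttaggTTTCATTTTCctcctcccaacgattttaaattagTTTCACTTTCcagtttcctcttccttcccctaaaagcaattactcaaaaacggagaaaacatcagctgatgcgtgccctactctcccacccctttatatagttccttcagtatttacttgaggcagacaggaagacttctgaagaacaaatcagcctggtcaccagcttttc
IFIT1, chr10:89392373-89392672, plus strand: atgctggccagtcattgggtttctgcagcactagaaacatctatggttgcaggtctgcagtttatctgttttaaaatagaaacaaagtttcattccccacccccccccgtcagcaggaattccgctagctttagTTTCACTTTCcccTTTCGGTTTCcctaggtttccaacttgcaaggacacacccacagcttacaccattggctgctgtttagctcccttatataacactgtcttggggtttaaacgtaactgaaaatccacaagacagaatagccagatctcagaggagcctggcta
TAP1, chr6:32853655-32853954, minus strand: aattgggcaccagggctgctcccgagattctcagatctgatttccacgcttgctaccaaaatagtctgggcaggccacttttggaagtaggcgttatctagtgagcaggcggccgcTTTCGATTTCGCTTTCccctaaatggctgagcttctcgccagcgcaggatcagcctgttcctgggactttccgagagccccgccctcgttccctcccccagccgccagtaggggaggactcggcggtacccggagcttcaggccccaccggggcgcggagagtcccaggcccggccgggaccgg
These letters occur in 5.31% of the 565 listed starts whose site was higher, 1.61% of 248 whose site was lower and 2.6% of all 11357. The AP-1 motif TGANTCA occurs in 6.02%, 4.03% and 4.44% in that order, the CCAAT box CCAAT in 38.4%, 36.3% and 36.3%, and the GC box GGGCGG in 67.1%, 65.3% and 73.7%. The TEAD motif GGAATG occurs in 9.73%, 9.68% and 10.2%, and the SMAD palindrome GTCTAGAC in 0.177%, 0% and 0.0881%. A match is a run of letters, and no test was made of these shares.

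Of 13 genes of the TGF-beta and BMP response, ID2 (0.77), ID3 (0.63) and TGFBR2 (0.35) were higher and SMAD2 (-0.26) was lower, beside 4.63% and 2.28% of all sites. With a minimum of 20000 counts per nucleus ID3 and TGFBR2 missed the threshold (0.56 and 0.39, edgeR adjusted p = 0.0777 and 0.0573). ID2 and ID3 encode inhibitors of helix-loop-helix factors, and TGFBR2 is a receptor gene at 3p. ID2 gave 35.7, 46.3, 48.2 and 47.0 CPM in members against 21.2, 25.7, 20.4 and 28.9 CPM, without overlap. TGFBR2 gave 67.5, 79.6, 83.1 and 101 CPM against 50.5, 49.7, 42.7 and 45.9 CPM, and its window rose as well. That window, 30 to 40 Mb of chromosome 3, is uneven. Its 2 Mb windows stood at 0.74 and 0.81 from 30 to 34 Mb and at 0.10 and 0.05 from 36 to 40 Mb. The value of TGFBR2 relative to the whole window can therefore include the rise of the block around it, and this part was not tested. TGFBR2 missed the threshold without either Inflachromene library (0.29 without 11 and 0.24 without 35, edgeR adjusted p = 0.0774 and 0.177). Of 14 DNA repair genes MGMT, picked on these data, was higher and 1 was lower.

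The other gene lists had at most 1 gene called in a direction, except the HOX genes, and their counts are read against 4.63% of all sites higher and 2.28% lower. E2F3 was the 1 of 21 genes of G1/S and replication (0.22), and 0 of 19 genes of G2/M and mitosis passed. Of 19 AP-1 and MAPK feedback genes 0 passed, 2 lying above 0 with a list median of -0.10. AJUBA (-0.35) was the 1 of 13 YAP and TEAD genes, BIRC3 (0.50) the 1 of 12 NF-kB genes, ADM (0.51) the 1 of 15 hypoxia genes, BTG2 (0.72) the 1 of 15 p53 targets and CASP8 (0.35) the 1 of 10 apoptosis regulators. Of 14 NRF2 targets ME1 was higher (0.88) and SLC7A11 lower (-0.97). Of 9 HOX genes outside the rule's windows HOXB5 (-0.37) and HOXB9 (-0.56) were lower, and 0 lay above 0. Another 5 lie on chromosome 7, a chromosome of the rule, among them HOXA5 at 0.85 and HOXA13 at 0.59, given with no test. Leaving out 1 library ended the calls of E2F3 (any of the 4), AJUBA (Carrier 31), ME1 (Carrier 31 or Inflachromene 11), SLC7A11 (either Inflachromene library) and HOXB5 (Inflachromene 11). A minimum of 20000 counts per nucleus ended these 5 calls and those of BIRC3, ADM and CASP8. TGFBR2, with the limit of its uneven window given above, was the 1 of 13 pancreatic cancer genes. For chromatin architecture 0 of 15 genes passed, and 0 of 10 housekeeping genes outside the rule's windows. The housekeeping median was -0.07, with 1 gene above 0, beside which the other list medians are read. ACTB, on chromosome 7, stood at -0.40, given with no test. HMGB1 gave 133, 142, 138 and 119 CPM in members against 127, 142, 136 and 138 CPM (-0.07, standard error 0.07, edgeR adjusted p = 0.689). HMGB2 gave 50.9, 59.2, 54.5 and 48.0 CPM against 48.7, 57.7, 57.8 and 57.9 CPM (-0.12, standard error 0.08, edgeR adjusted p = 0.534), so no difference passed the test for either.

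Of 45490 single regions outside the rule's windows, 892 were higher relative to their window (1.96%) and 698 lower (1.53%). Gene sites made up 36.5% of the higher and 20.9% of the lower regions, against 23.6% of all tested. Away from gene sites, a region inside PTPRM at chr18:7600806-7601779 gave 8.15, 12.02, 8.71 and 4.06 CPM in members against 2.13, 0.69, 0.57 and 1.15 CPM. A region 2065 bp from CCL2, a chemokine that draws monocytes, at chr17:34252173-34253220 gave 19.02, 17.2, 30.1 and 9.82 CPM against 2.55, 4.30, 4.87 and 3.65 CPM. Both were higher in every library (3.26 and 2.44, edgeR adjusted p = 0.000472 and 7.36e-05). The nearest gene of the region with the lowest value was BMP2, a growth factor gene 247435 bp away. This region, chr20:6519215-6520251, gave 0, 0.45, 0.53 and 0.64 CPM in members against 4.77, 3.56, 4.11 and 8.85 CPM. A region inside COL25A1, a transmembrane collagen gene, at chr4:108849397-108850468 gave 0, 0.68, 2.11 and 0.32 CPM against 13.2, 5.74, 8.21 and 5.87 CPM. No fold is given for these regions, since members had 0 or few counts. Without shared barcodes 615 regions were called, 590 of them among the 1590, and 762 were called without Carrier 12 and 414 without Inflachromene 11.

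The share of all counts that fell at gene sites was 50.5%, 51.7%, 52.3% and 47.7% in members and 47.5%, 51.3%, 52.6% and 49.0% in reference nuclei. Members were higher in both Carrier and lower in both Inflachromene libraries. The mean difference of 0.44 percentage points had an exact two-sided sign-flip permutation p of 0.75, where 0.13 is the smallest that 4 libraries allow. The mean was -0.42 points without Carrier 12.

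Within the members, Inflachromene was compared with Carrier on 4 sums, 1 per library. Values of this contrast are plain log2 fold changes, not relative to the window. By edgeR's quasi-likelihood test 0 of 12304 gene sites passed, with 560 at an unadjusted p under 0.05, and 0 of 50501 regions passed, with 2642. DESeq2 called 4 sites and 13 regions. The members of both Inflachromene libraries lay on one side of both Carrier libraries at 3878 of the 12304 sites (31.5%). ADRB1, the beta-1 adrenergic receptor, gave 11.3, 7.71, 24.3 and 27.3 CPM (1.53, edgeR adjusted p = 0.535). The site thus had higher counts in members of both Inflachromene libraries without passing the test.

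Other sites named for this contrast did not pass either. DKK1, a secreted inhibitor of Wnt signalling, gave 32.6, 28.4, 51.5 and 58.7 CPM (0.92, edgeR adjusted p = 0.533), and the nuclear receptor gene NR4A3 gave 26.8, 26.3, 43.7 and 42.1 CPM (0.73, edgeR adjusted p = 0.901). RHOBTB1, SYT9 and ADAMTS1, a matrix protease, stood at 1.27, 1.72 and 1.85. On the lower side EOLA2 gave 147, 178, 96.5 and 98.5 CPM (-0.70, edgeR adjusted p = 0.533), and FAM117A, PLEKHG1, GASK1B, MAP1LC3C and PLTP stood between -1.72 and -0.48. Members of Carrier 31 and of Inflachromene 35 differ from those of the other libraries on chromosomes 11 and 12, as given above, so this contrast also compares nuclei of unlike chromosome blocks; the part of those blocks in it was not tested. Without Inflachromene 11, 90 sites and 1311 regions were called, and without Inflachromene 35, 10 sites and 14 regions.

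**Figure D5:**
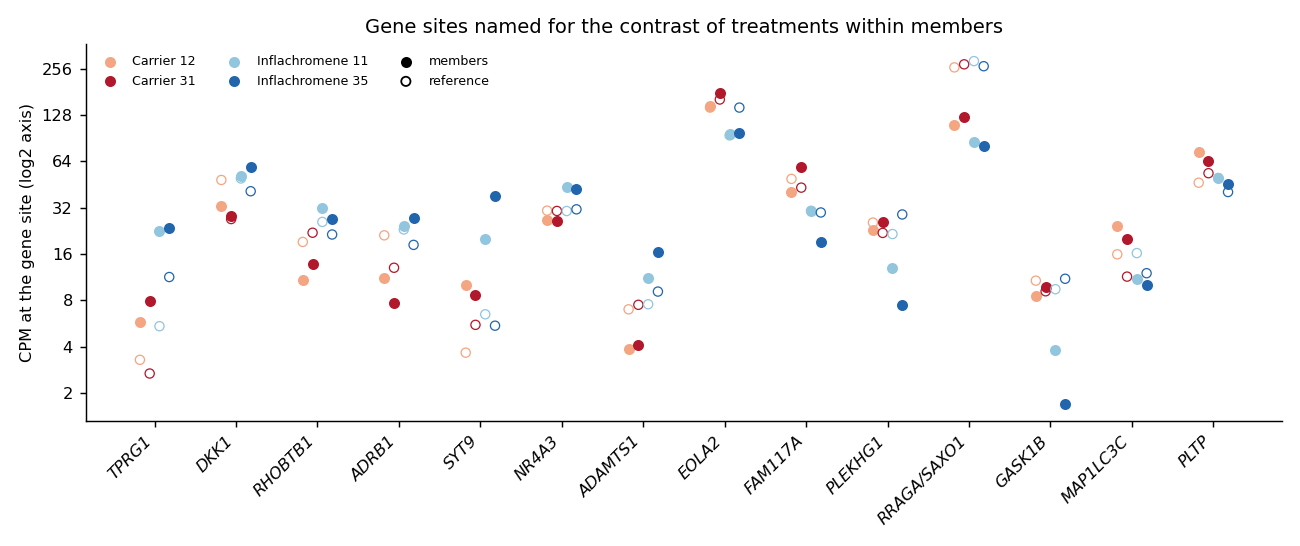
Points give the CPM of each library at gene sites chosen for Inflachromene against Carrier (x axis) on a log2 y axis, filled for members and open for reference nuclei. In members the 2 libraries of each treatment do not overlap at any of these sites, which is how they were chosen; 0 passed the test.

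Whether members differed from reference nuclei to another degree under inflachromene was tested as an interaction. By edgeR, 0 of 297 windows passed (9 at an unadjusted p under 0.05) and 0 of 12309 gene sites (603). DESeq2 called 0 of either. Without Inflachromene 11, 6 windows and 50 gene sites were called.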

How the data were processed

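Single-nucleus ATAC-seq libraries of 4 mice were used. Per the submitters' processing notes, the authors used Cell Ranger ATAC 2.1.0 and Cell Ranger ARC with GRCh38; the matrix headers name the former. The deposited matrices hold raw counts of each peak in each barcode, as the authors made them. Per the deposited matrices, 82.4% to 84.9% of entries above 0 are even, so that 2 counts are often 1 molecule; intervals and shares rest on nuclei and cover counting error only.

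Peaks overlapping by 1 bp on chromosomes 1 to 22 and X were merged (128195), and those present in all 4 libraries were kept (50771, median width 936 bp). Counts were summed per library and class (8 sums). No doublet caller was run. edgeR 4.0.16 in R 4.3.3 (TMM, filterByExpr, quasi-likelihood test, library as a block) was the main tool and DESeq2 1.42.0 an alternative; Python 3.11.15 and scipy 1.17.1 did the rest. For values relative to the window, the rest of the 10 Mb window (20 or more regions) was an offset in place of TMM. RefSeq's promoter table lists a start for 15812 genes, of which 9990 have a region there. Contrary to the plan, the 4162 genes without one were taken at an outer end within 1000 bp (2321 had a region), gene by gene. Of 12311 gene sites, 2749 share a region with another gene. No genome sequence was used beyond that table. The fits of gene sites, members against reference and treatment within members, were tested on simulated counts without the window offset. Values relative to the window, single regions, windows and the interaction were not simulated.

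The members, the 19 gene lists and the rules were chosen with earlier results of these data known. Named sites are the 15 largest changes in each direction, relative to the window, that passed and agreed in direction in 4 libraries; 6 regions in each direction by the same rule; the 8 sites of highest count in each rule interval; up to 4 genes per list by smallest p; and up to 8 per direction for treatment. SMAD2, IRF9, IRF1, ISG15 and the genes of gene families were named after their values were seen. A few named sites are not reported here.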

Additional observations from a re-analysis of the deposited data

How the results depend on the processing

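Both Inflachromene libraries had a larger share of members than both Carrier libraries under every alternative tried, with a difference of 15.3 to 22.7 percentage points when 1 library was left out and 31.8 points with nuclei low on chromosomes 7 and 15 counted. Of 267 windows, 62 were called, between 44 and 77 under the alternatives on 10 Mb windows, and 117 of 505 windows of 5 Mb. Gene sites numbered 2067 as reported, 1079 at a minimum of 20000 counts per nucleus, and 1337 to 1829 with 1 library left out. Relative to the window, 774 were called as reported, 217 at that minimum, 426 without shared barcodes, 509 by DESeq2, 458 without the library block and 511 to 660 with 1 library left out. Regions numbered 1590 as reported, 355 at that minimum, 640 against all other nuclei, 615 without shared barcodes, 872 without the library block and 414 to 1388 with 1 library left out. Within members, DESeq2 called 4 sites and 13 regions in place of 0, and leaving out 1 library gave 0 to 90 sites and 0 to 1311 regions; the interaction gave 0 to 6 windows and 0 to 50 sites. The difference in counts at gene sites was 0.44 points, -0.12 at the minimum of 20000 and -0.42 to 1.03 with 1 library left out. For named sites, 1447 alternative values relative to the window kept their side of the threshold, 86 lost their call and 11 gained one. For sites that were not called, the 1447 include values whose direction changed. At the minimum of 20000, 23 were lost, where 18 members of Carrier 12 remained. BHLHE40 relative to its window turned to -0.22 when nuclei with a count were summed in place of counts; the cause was not tested. No nucleus exceeded 3 times its library's median, so that alternative changed nothing. DESeq2's size factors were not run for values relative to the window, where the offset replaces them. No paired analysis was possible because the mouse numbers of the Carrier and Inflachromene groups differ. Depth limits single sites: the Carrier 12 members, with the fewest counts, give the least precise values.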

Other observations

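Zinc finger genes and protocadherins were not among the lists above and were counted after the calls were seen. Relative to their windows, 100 of 910 gene sites on chromosome 19 were higher in members (11%), against 519 of 11207 over all sites (4.63%). Of 217 zinc finger genes there (symbols starting with ZNF, ZSCAN, ZFP or ZKSCAN), which encode mostly DNA-binding repressors, 35 were higher (16.1%) and 6 lower (2.76%), with a median log2 of 0.02. Of the other 693 sites on the chromosome 65 were higher (9.38%), and of 204 zinc finger genes on other chromosomes 7 were (3.43%). The lower share of the chromosome 19 zinc finger genes, 2.76%, was near the 2.28% of all sites. ZNF880 at 1.67 and ZNF626 at -1.26 are single sites of each direction. Of 21 protocadherin sites, which encode neuronal-type adhesion molecules, 0 were higher and 5 lower (23.8%), with a median of -0.32. Several of these genes share a cluster on chromosome 5. Away from gene sites, a region inside the protocadherin gene PCDH10 at chr4:133155944-133156891 was higher relative to its window (2.61, edgeR adjusted p = 0.00154).

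On chromosome 17, 8.06% of sites were higher and 4.16% lower, on chromosome 18, 8.23% and 5.7%, and on chromosome 3 outside the rule's interval 7.78% and 6.16%, against 4.63% and 2.28% over all sites.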
